A study of Mus musculus with 12 samples.

Results

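The genes described are the 5 major urinary protein genes Mup1, Mup3, Mup7, Mup20 and Mup21, taken by symbol from a table of 13554 genes measured in mouse liver after partial hepatectomy, an operation in which part of the liver is cut away. All 5 passed the filter on low values, and the table holds 15 symbols of the family in all. They were selected on their normalised reads in these libraries, so their levels and differences between groups are given as a description, without a test. The 12 libraries, in 4 groups of 3, were made on postoperative day 3 from the liver of male C57Bl/6J mice of wild-type genotype. These were an 80% resection in an arm named HC (PH80_HC), the same 80% resection together with G-CSF and HNF4a (called PH80_G+H), an 80% resection without either (PH80) and a 70% resection (PH70). G-CSF drives the formation of granulocytes, and HNF4a is a transcription factor of hepatocytes. The sources used here give neither the meaning of HC nor how, when and at what dose G-CSF and HNF4a were given. Every group had been operated on and none was an unoperated liver, and the labels leave unsaid whether the replicates are different mice. The p-values below therefore rest on library-to-library spread that may be only technical.

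Major urinary proteins are small secreted proteins of the lipocalin family, barrel-shaped carriers that hold volatile ligands. In mice they are made in hepatocytes, released into blood, filtered by the kidney and deposited with urine as scent marks, and adult males make far more of them than females. Their transcription in liver is known to depend on the pulsed growth hormone secretion of males, which acts through the growth hormone receptor and the transcription factor STAT5B, and also on glucocorticoids and thyroid hormone. MUP20, called darcin, is a male pheromone that attracts females, and the products of Mup1 and Mup7 belong to the large central group of near-identical copies.

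GENCODE M21 places 22 protein-coding Mup genes on chromosome 4 of GRCm38, the build named in the submitters' processing notes, together with 26 pseudogenes there and 1 on chromosome 11. All 5 genes lie on the minus strand of that cluster. Mup7 spans 60066469 to 60070475 and Mup1 spans 60498012 to 60501960, both among the central copies. Mup20 spans 62050234 to 62054158, Mup3 spans 62083476 to 62087342 and Mup21 spans 62147932 to 62150863, next to each other at the far side of the cluster. Their spliced transcripts measure 927 bases for Mup7, 927 for Mup1, 928 for Mup20, 984 for Mup3 and 677 for Mup21, in 7 exons each except Mup21, which has 6. Mup1 and Mup7 share 98.9% of their coding bases and differ at 6 of 540. Mup3 and Mup21 share 94.7%, Mup20 shares 90.6% with Mup1, and Mup3 shares 82.3% with Mup7.

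To show how far a short read can tell the copies apart, the 75 coding bases that vary most among the 5 genes are given 5′ to 3′ on the coding strand, read from the GRCm38 reference. Capitals mark bases that differ from Mup1 at that position, and 25 of the 75 positions vary.
Mup1: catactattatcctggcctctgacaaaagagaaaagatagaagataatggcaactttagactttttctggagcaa
Mup7: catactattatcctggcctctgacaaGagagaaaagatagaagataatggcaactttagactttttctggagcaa
Mup20: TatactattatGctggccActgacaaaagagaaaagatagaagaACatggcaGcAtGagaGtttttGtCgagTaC
Mup3: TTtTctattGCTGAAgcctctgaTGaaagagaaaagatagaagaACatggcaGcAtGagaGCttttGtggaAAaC
Mup21: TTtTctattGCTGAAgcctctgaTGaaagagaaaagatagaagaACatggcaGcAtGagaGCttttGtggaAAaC
In this stretch Mup7 differs from Mup1 at 1 base, Mup20 at 13, and Mup3 and Mup21 at 22 each. The lines of Mup3 and Mup21 are the same, so this stretch does not separate that pair.

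Over whole transcripts, each window of 100 bases was compared with all other annotated transcripts. Only 12.8% of the windows of Mup1 and 12.9% of those of Mup7 occur in no other gene, against 61.2% for Mup20, 97.1% for Mup3 and 95.5% for Mup21. With windows of 50 bases these shares were 5.24% for Mup1, 3.64% for Mup7, 49.5% for Mup20, 84.4% for Mup3 and 80.7% for Mup21. The sources used here do not say how reads that match several copies were counted, so the values of Mup1 and Mup7, and of most of the other central copies, are uncertain as values of single genes. Mup3 and Mup21, and to a lesser degree Mup20, can be read as single genes.

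**Figure D1:**
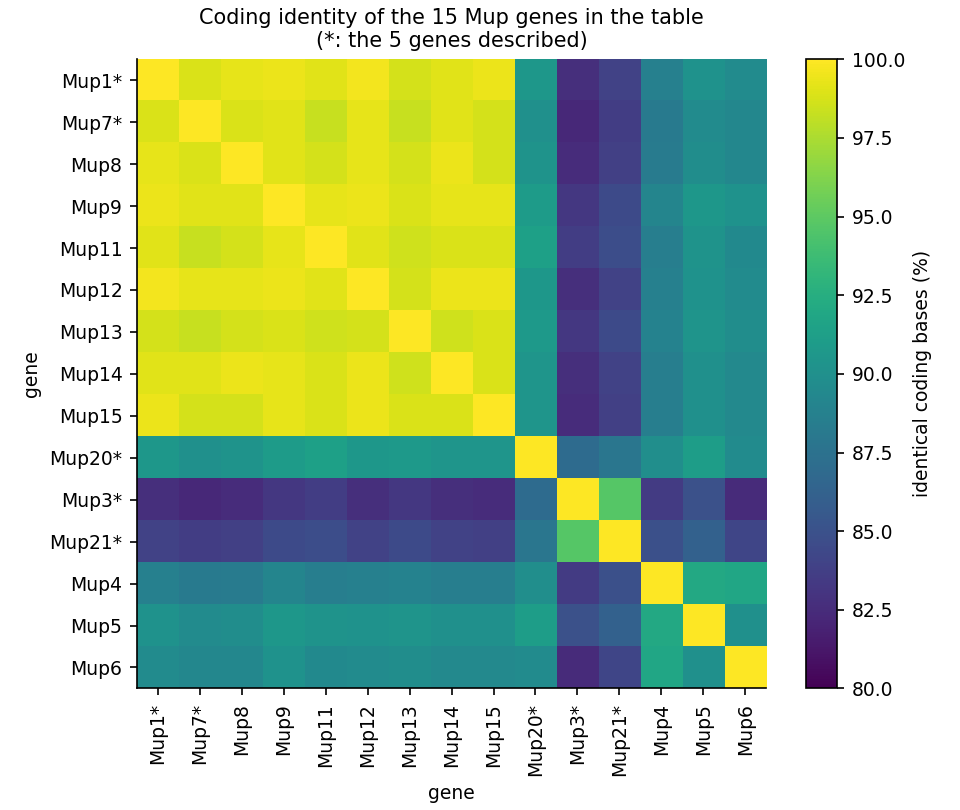
Percent of identical coding bases between each pair of the 15 Mup genes in the table, on a colour scale between 80% and 100%, with the 5 genes described marked by an asterisk. The central copies, with Mup1 and Mup7 (98.9% identical), form a block, and Mup3 and Mup21 (94.7%) form a pair of their own.

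RefSeq promoter windows on GRCm38.p6, 250 bases before and 50 after the gene start, were at hand for 3 of the 5 genes, Mup3, Mup7 and Mup21. They are shown because the upstream sequences are close while the groups separated differently for the 3 genes. Capitals mark runs of at least 10 bases that occur in all 3, and all 3 are on the minus strand, at chr4:62087268-62087567 for Mup3, chr4:60070426-60070725 for Mup7 and chr4:62150792-62151091 for Mup21.
Mup3: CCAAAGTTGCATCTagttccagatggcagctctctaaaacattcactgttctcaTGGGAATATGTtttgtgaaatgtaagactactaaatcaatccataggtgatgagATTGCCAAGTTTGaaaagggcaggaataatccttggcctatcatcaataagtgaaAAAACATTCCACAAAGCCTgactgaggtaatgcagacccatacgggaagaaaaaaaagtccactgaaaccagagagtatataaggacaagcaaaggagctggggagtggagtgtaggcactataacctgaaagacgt
Mup7: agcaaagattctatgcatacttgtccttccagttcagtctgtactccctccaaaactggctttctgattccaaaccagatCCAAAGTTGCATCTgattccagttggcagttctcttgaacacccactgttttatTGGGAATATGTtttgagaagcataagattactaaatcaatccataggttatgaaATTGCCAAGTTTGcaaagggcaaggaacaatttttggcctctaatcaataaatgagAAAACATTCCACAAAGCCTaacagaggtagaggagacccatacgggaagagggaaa
Mup21: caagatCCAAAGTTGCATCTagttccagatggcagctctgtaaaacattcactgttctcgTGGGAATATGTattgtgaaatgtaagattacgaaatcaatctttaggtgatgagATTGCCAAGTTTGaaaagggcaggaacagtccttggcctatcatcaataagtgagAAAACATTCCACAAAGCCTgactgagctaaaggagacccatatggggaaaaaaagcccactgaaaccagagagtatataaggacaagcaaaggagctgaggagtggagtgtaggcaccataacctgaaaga
The shared runs number 4, cover 57 bases and reach 19 bases. Local alignment gave 92.9% identity over 297 columns between Mup3 and Mup21, 85.0% over 214 between Mup3 and Mup7 and 83.6% over 214 between Mup7 and Mup21. On both strands, the TATA sequence TATATAA was found at 1 place in Mup3 and 1 in Mup21 and at 0 in Mup7. Of 32851 mouse promoter windows of the same length, 3.24% hold it. The Mup7 window ends before the stretch that holds this sequence in Mup3 and Mup21, so its 0 does not show that Mup7 lacks it. TTCNNNGAA (STAT5, in 8.30% of all windows), TTGCNNAA (C/EBP, 10.8%), TGTTTAC (FOXA, 3.65%), CAAAGTCCA (HNF4, 0.475%) and TTAATNATT (HNF1, 1.47%) were found at 0 places in the windows of the 3 genes. That says only that these letters are not in these windows.

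Values are normalised reads, that is, reads divided by 1 size factor per library, and errors are SD over 3 libraries unless named otherwise. Recovered depth ranged between 9.72 M reads (PH70 replicate 3) and 44.5 M (PH80_G+H replicate 2). The hepatocyte marker Alb was the most abundant gene of every library, and the other 5 hepatocyte markers checked ranked at 60 or better, so the tissue label holds. Some libraries stood apart within their group. PH80 replicate 2 had the highest summed neutrophil markers of its group (5796, against 581 and 298 in PH80 replicates 1 and 3), macrophage markers (26662, against 14079 and 11116) and stellate cell markers (18919, against 7859 and 6909). PH70 replicate 3 had summed cholangiocyte markers of 11954, against 1133 and 2064 in the other PH70 libraries. PH80_HC replicate 3 and PH80 replicate 1 favoured short transcripts (slopes of -0.28 and -0.19 log2 units per doubling of length), and PH80_G+H replicate 2 and PH70 replicate 3 favoured long ones (0.24 and 0.23).

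Summed over the 5 genes, the family reached 144252, 84207 and 208289 normalised reads in the PH80_HC libraries. The PH80_G+H libraries held 236766, 159047 and 243074. The PH80 libraries held 315641, 100718 and 264189, and the PH70 libraries 309270, 273669 and 307583. The means were 145583 ± 62052 in PH80_HC, 212963 ± 46798 in PH80_G+H, 226849 ± 112221 in PH80 and 296841 ± 20085 in PH70. The PH80 libraries spread the most, with replicate 2 at 100718, while the PH70 libraries lay close together. As a share of all normalised reads the family took between 0.393% and 0.683% of a library in PH80_HC, between 0.722% and 1.10% in PH80_G+H, between 0.471% and 1.50% in PH80 and between 1.12% and 1.42% in PH70. In bulk liver, fewer hepatocytes and less RNA per hepatocyte cannot be told apart.

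The family sum differed by -0.54 on the log2 scale between PH80 and PH70, by -0.58 between PH80_HC and PH80 and by 0.04 between PH80_G+H and PH80, and in each of these pairs the groups overlapped. Between PH80_HC and PH70 the difference was -1.12, or 2.18-fold lower, and between PH80_G+H and PH70 it was -0.50, or 1.42-fold lower. In both of those pairs the libraries of the groups did not overlap. Summed macrophage markers lay between 18596 and 28252 in PH80_HC, between 10949 and 15838 in PH80_G+H, between 11116 and 26662 in PH80 and between 9130 and 12174 in PH70. All 7 macrophage markers had a positive log2 difference in PH80_HC against PH80, with 3 at an unadjusted p under 0.05 and 0 called by limma, and their part in the lower family sum was not tested. The comparisons share their PH80 or PH70 libraries and are not independent of each other. PH80 replicate 2 decided much of what was seen against PH80: without it the difference was -0.04 between PH80 and PH70, -1.08 between PH80_HC and PH80 and -0.47 between PH80_G+H and PH80. Its high neutrophil, macrophage and stellate marker sums stood beside its low family sum, and their part in it was not tested.

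**Figure D2:**
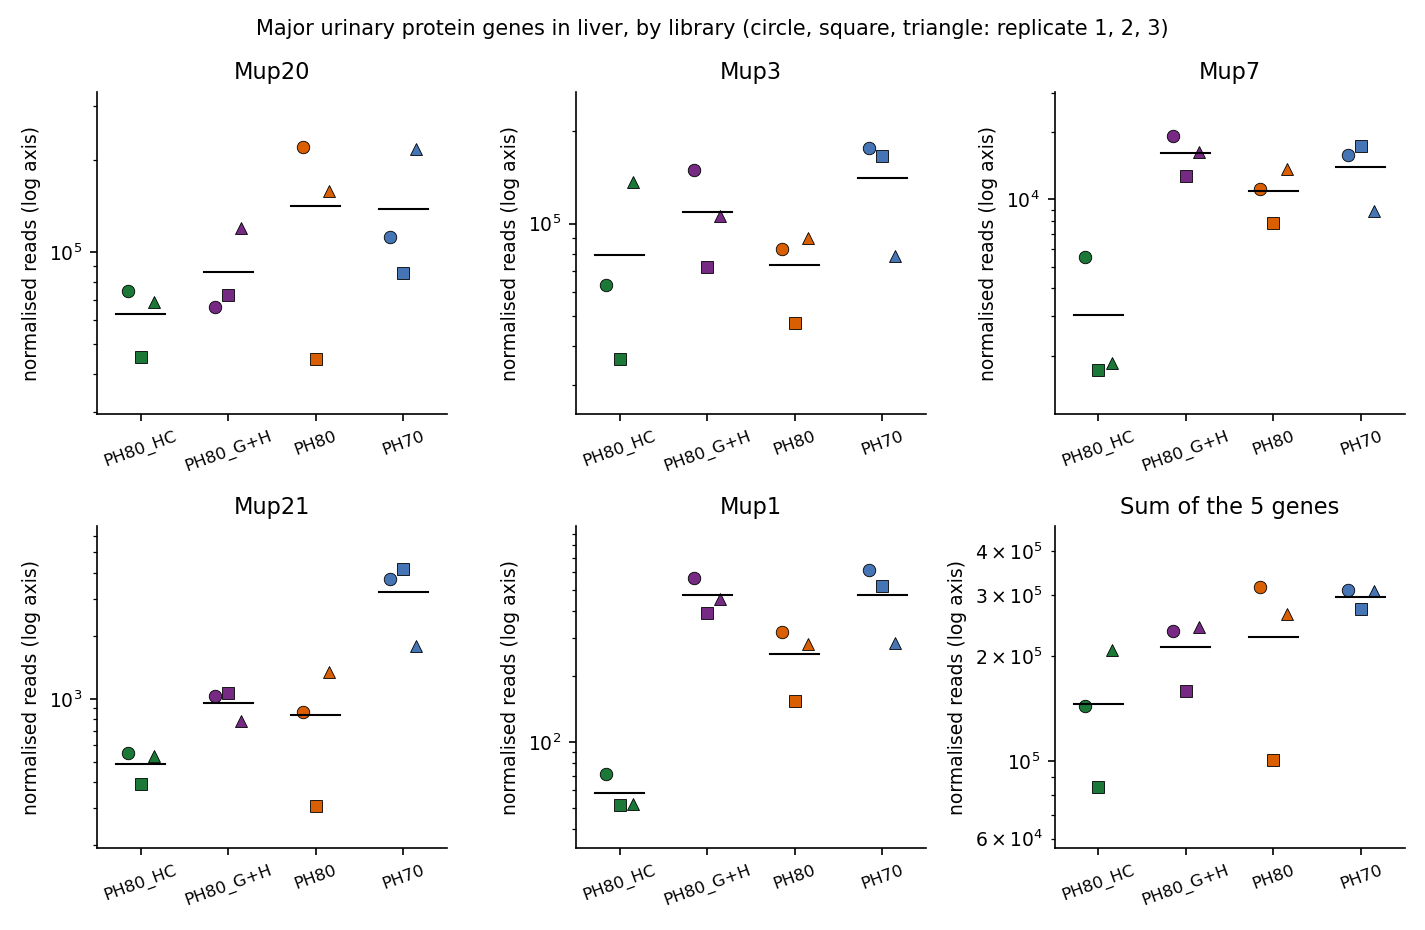
Normalised reads (log axis) of the 5 genes and of their sum in each library, by group (PH80_HC, PH80_G+H, PH80, PH70), with the marker shape giving the replicate and the line the group mean. The PH80_HC libraries lie below those of all other groups for Mup7 and Mup1, and the PH70 libraries lie above those of all other groups for Mup21.

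As counted, Mup20 and Mup3 made up nearly all of the sum. How reads that match several copies were counted is not known, and Mup1 and Mup7 have few windows of their own. The family sum, the share of each gene in it and the levels per kilobase carry that uncertainty. Mup20, the gene of darcin, accounted on average for 46.3% of it in PH80_HC, 41.0% in PH80_G+H, 58.2% in PH80 and 46.2% in PH70, and Mup3 for 51.0% in PH80_HC, 50.7% in PH80_G+H, 35.8% in PH80 and 47.8% in PH70. Both were among the most abundant transcripts of the liver, with ranks between 7 and 54 for Mup20 and between 10 and 61 for Mup3. Per kilobase of transcript, mean levels in PH70 were 149438 for Mup20, 142720 for Mup3, 15132 for Mup7, 4766 for Mup21 and 510 for Mup1. Among these, Mup20 and Mup3 did not differ beyond their spread (SD 75508 and 54799).

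**Figure D3:**
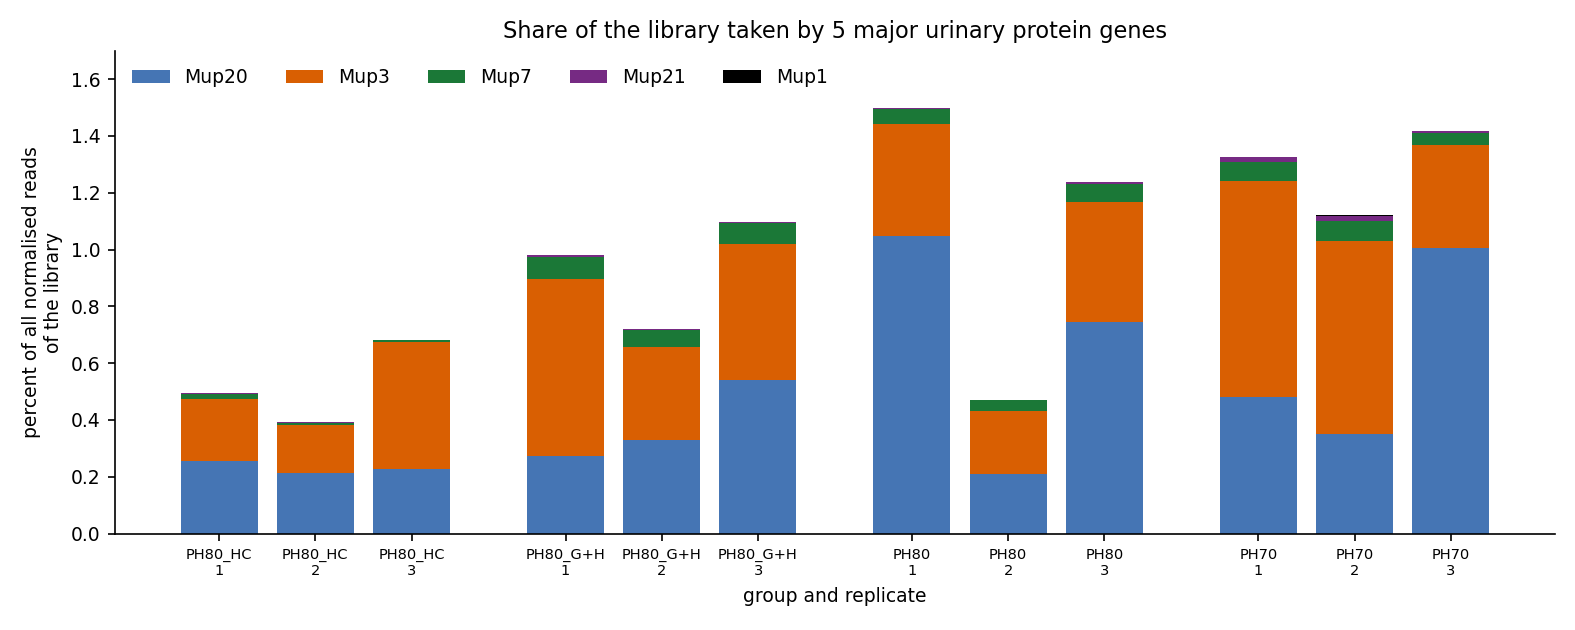
Share of all normalised reads (percent) taken by the 5 genes in each of the 12 libraries, stacked by gene, with libraries in the order PH80_HC, PH80_G+H, PH80 and PH70. As counted, Mup20 and Mup3 fill nearly the whole of each bar. Their proportion changes between libraries of 1 group, as in PH70 replicate 3, where Mup20 exceeds Mup3 2.78-fold.

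Mup20 had 74648, 45563 and 69027 normalised reads in PH80_HC, 66104, 72679 and 119768 in PH80_G+H, 220524, 44843 and 159177 in PH80 and 112262, 85655 and 218118 in PH70. The PH80 libraries spanned the whole range seen in the study, and the PH80_HC libraries all lay below the lowest PH70 library. On the log2 scale Mup20 differed by -0.92 between PH80_HC and PH80 and by -0.48 between PH80_G+H and PH80, with overlapping groups. Without PH80 replicate 2 these differences were -1.60 and -1.17, and without PH80 replicate 1 they were -0.45 and -0.02. Between PH80 and PH70 its log2 difference was -0.14 although the PH80 mean was slightly higher (141515 ± 89162 in PH80 and 138678 ± 70071 in PH70), and the sign turned without PH80 replicate 2 (0.55) and without PH70 replicate 3 (0.25). Between PH80_HC and PH70 it was 2.07-fold lower, without overlap.

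Mup3, a divergent member of the family outside the central copies, had 63440, 36471 and 136832 normalised reads in PH80_HC, 149905, 72133 and 105713 in PH80_G+H, 82832, 47555 and 89733 in PH80 and 176803, 166021 and 78484 in PH70. Every pair of groups overlapped, and the log2 differences were -0.90 between PH80 and PH70, -0.05 between PH80_HC and PH80 and 0.56 between PH80_G+H and PH80. PH80_HC replicate 3 was the highest library of its arm and also the one that favoured short transcripts most. Without it Mup3 differed by -0.56 between PH80_HC and PH80. With all libraries kept and the length trend removed, the Mup3 difference was -0.11, against -0.05 before.

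The balance of the 2 abundant genes was not fixed within a group. Mup20 over Mup3 was 1.18, 1.25 and 0.504 in PH80_HC, 0.441, 1.01 and 1.13 in PH80_G+H, 2.66, 0.943 and 1.77 in PH80 and 0.635, 0.516 and 2.78 in PH70. Over the 12 libraries their log2 values correlated with a Pearson r of 0.29, whereas Mup1 and Mup7 correlated with an r of 0.95. Mup1 and Mup7 share most of their sequence, and all values of a library share its size factor.

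Mup7 had 5544, 1729 and 1846 normalised reads in PH80_HC, 19164, 12783 and 16355 in PH80_G+H, 11098, 7857 and 13655 in PH80 and 15866, 17296 and 8920 in PH70. All 3 PH80_HC libraries were below every other library of the study. Mup7 was 4.07-fold lower in PH80_HC than in PH80, without overlap, and 1.50-fold higher in PH80_G+H than in PH80, with overlap. Between PH80 and PH70 the log2 difference was -0.35, with overlap.

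Mup1 was also lowest in PH80_HC, at a much lower level than Mup7, with 71.3, 51.6 and 51.9 normalised reads in PH80_HC, 566.6, 391.8 and 453.5 in PH80_G+H, 320.7, 154.8 and 282.3 in PH80 and 615.5, 517.3 and 285.4 in PH70. These values rest on between 40 and 1017 recovered reads per library. Mup1 was 4.13-fold lower in PH80_HC than in PH80, without overlap. It was 1.93-fold higher in PH80_G+H than in PH80, also without overlap, and the PH80_G+H and PH70 means were close (471 ± 88.7 in PH80_G+H and 473 ± 169 in PH70). The ratio of Mup7 to Mup1 lay between 25.8 and 77.8 in the 12 libraries.

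Mup21, a neighbour of Mup3 with the shortest transcript of the 5, had 548, 392 and 532 normalised reads in PH80_HC, 1027, 1060 and 785 in PH80_G+H, 866, 308 and 1342 in PH80 and 3724, 4179 and 1777 in PH70. All 9 libraries with the larger resection were below the lowest PH70 library. The mean was 839 ± 517 in PH80 and 3227 ± 1276 in PH70, 4.25-fold lower, and PH80_HC was 6.22-fold and PH80_G+H 3.18-fold lower than PH70, all without overlap. The log2 difference of -2.09 between PH80 and PH70 was -1.49 without PH80 replicate 2 and -2.55 without PH80 replicate 3. Between the arms with the larger resection the groups overlapped PH80, with log2 differences of -0.55 for PH80_HC and 0.42 for PH80_G+H, and without PH80 replicate 2 they were -1.15 and -0.18. Mup3, 92.9% identical in its promoter window and 94.7% in its coding bases, differed by -0.90 between PH80 and PH70, with overlap.

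Counted over the 5 genes, Mup21 alone was lower without overlap in PH80 than in PH70, where 14.2% of 12570 tested genes were. Mup1 and Mup7 were lower without overlap in PH80_HC than in PH80, where 7.38% of tested genes were. Mup1 was higher without overlap in PH80_G+H than in PH80, where 8.82% of tested genes were. All but Mup3 were lower without overlap in PH80_HC than in PH70 (9.07% of tested genes), and Mup21 in PH80_G+H than in PH70 (7.57%). In the other direction, with 0 of the 5 genes, the share of tested genes was 12.8% higher in PH80 than in PH70, 8.26% higher in PH80_HC than in PH80, 8.11% lower in PH80_G+H than in PH80, 7.96% higher in PH80_HC than in PH70 and 5.95% higher in PH80_G+H than in PH70. As the genes were chosen by their values in these libraries, nothing is read from these counts against the background.

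The other 10 family symbols in the table were 10 of 10 lower in mean log2 value in PH80_HC than in PH80, and 10 of 10 higher in PH80_G+H than in PH80, and 8 of them passed the filter on low values, Mup11 and Mup13 being the exceptions. Without overlap, 4 were lower in PH80_HC than in PH80 (Mup6, Mup15, Mup8 and Mup13) and 2 were higher in PH80_G+H than in PH80 (Mup8 and Mup11), where 7.38% and 8.82% of tested genes were. In PH80_HC, Mup8, Mup13 and Mup15 rested on between 0 and 7 recovered reads per library. Between PH80 and PH70, 7 were lower and 3 higher, with Mup8 and Mup11 lower without overlap (14.2% of tested genes). Mup11 and Mup13 are not among the tested genes, so these shares do not cover them. Most were low and share sequence with Mup1 and Mup7, so they are not independent of them. Mup14, the most abundant of them, averaged 840 ± 326 normalised reads in PH80_HC, 2547 ± 655 in PH80_G+H, 2338 ± 1265 in PH80 and 2435 ± 315 in PH70. Mup9 ran another way, with 15.4, 7.37 and 25.9 in PH80_HC, 125, 142 and 236 in PH80_G+H, 432, 20.2 and 166 in PH80 and 17.6, 27.4 and 15.6 in PH70. Its PH80_G+H libraries were all above its PH70 libraries.

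**Figure D4:**
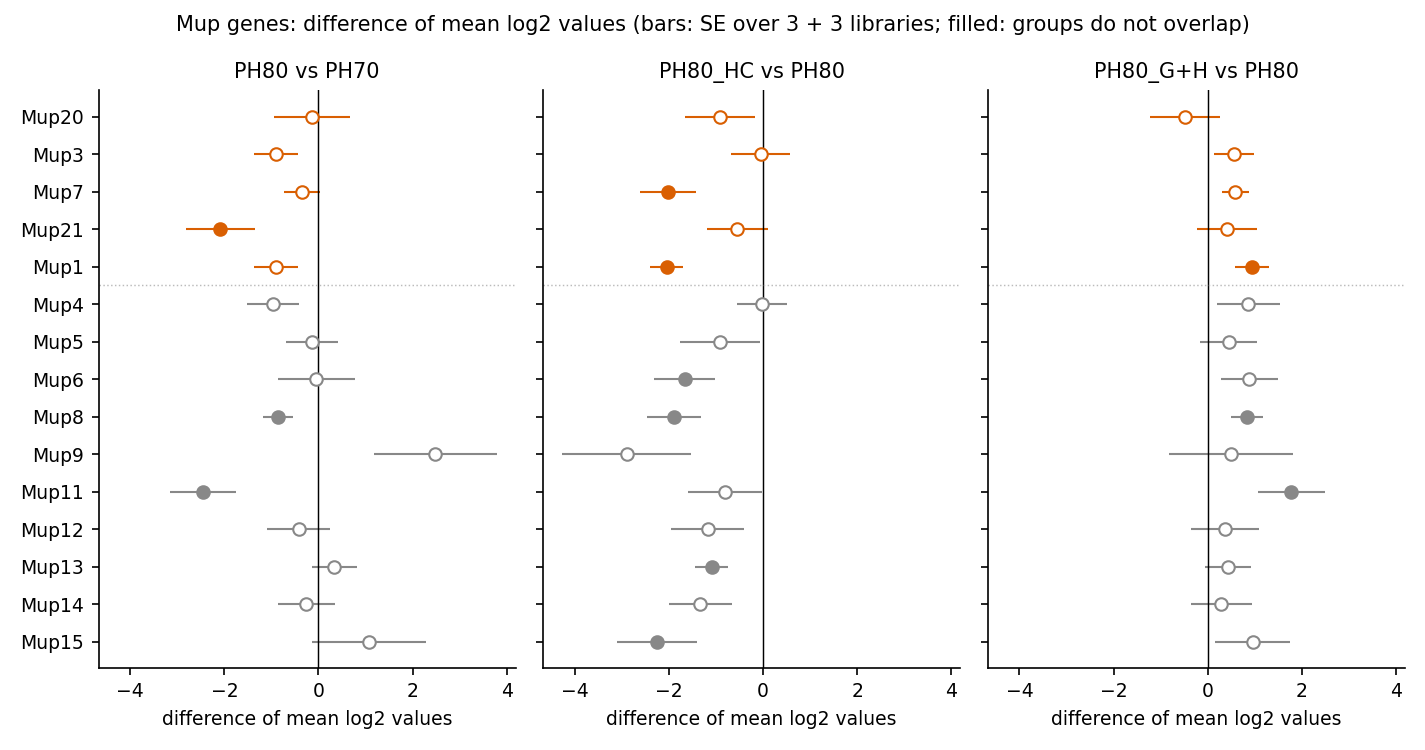
Difference of mean log2 values for the 5 genes (orange) and the 10 other Mup symbols (grey) in PH80 against PH70, PH80_HC against PH80 and PH80_G+H against PH80, with bars of 1 SE and filled points where the libraries of the groups do not overlap. All points of the PH80_HC panel lie below 0, while in the PH80_G+H panel only Mup20 lies below 0.

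Against the other proteins that hepatocytes secrete, the family did not keep a constant share. As a percentage of the summed reads of 21 secreted hepatocyte proteins, which include albumin, the apolipoproteins and the fibrinogen chains, it reached between 1.80% and 3.12% in PH80_HC, between 3.05% and 5.46% in PH80_G+H, between 2.33% and 8.30% in PH80 and between 4.68% and 6.10% in PH70. On this scale the family log2 difference was -1.16 between PH80_HC and PH80, -0.22 between PH80_G+H and PH80 and -0.18 between PH80 and PH70. Albumin itself, the main plasma protein, averaged 2456843 ± 639669 in PH80_HC, 2274552 ± 301472 in PH80_G+H, 1630274 ± 199611 in PH80 and 2480799 ± 143610 in PH70. The PH80 libraries (at most 1857743) all lay below the PH70 libraries (at least 2316491). The limma adjusted p of albumin was 0.82 for PH80_HC against PH80 and 0.69 for PH80 against PH70, with an SE of 0.79 on the log2 scale. For PH80 against PH70 its adjusted p was 0.13 in limma without the intensity trend, 0.34 by edgeR and 0.047 by DESeq2. Of the 21 proteins, 0 passed limma with the intensity trend in any of the 3 comparisons tested. These 0 calls depend on the trend. In limma without it, Apoh passed in PH80 against PH70 (adjusted p 0.038, against 0.079 in limma with the trend). At an unadjusted p under 0.05 there were 3 of them in PH80 against PH70, 4 in PH80_HC against PH80 and 0 in PH80_G+H against PH80. EdgeR called 0 in each comparison, and DESeq2 called 5 in PH80 against PH70, 3 in PH80_HC against PH80 and 0 in PH80_G+H against PH80.

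The upstream pathway was tested with limma on all 12570 genes, in lists that do not contain Mup genes. The lists were chosen with earlier results of these data known, so their counts beside the share over all genes are a description. In PH80 against PH70, 3.82% of all tested genes passed (1.09% higher and 2.73% lower). Of 19 genes of growth hormone signalling, 0 rose and 2 fell, and the list median was -0.40 on the log2 scale, against 0.01 over all genes tested. EdgeR called 0 of these 19 and DESeq2 called 4. Ghr, the growth hormone receptor, had 3282, 1733 and 4522 normalised reads in PH80, against 8514, 8891 and 5122 in PH70. The 2 groups did not overlap, and the difference was 2.47-fold lower in PH80 (log2 -1.30, SE 0.32, limma adjusted p 0.041). Stat5b, which carries the pulsed hormone signal to male-biased promoters, had 622, 603 and 773 in PH80, against 1060, 1228 and 1300 in PH70, again without overlap. It was 1.80-fold lower in PH80 (limma adjusted p 0.0497). Both calls lay close to the threshold, and Ghr was not called in 13 and Stat5b in 14 of 22 alternative fits.

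Downstream of the receptor, the STAT5 target Socs2, a feedback inhibitor, averaged 150 ± 51.3 in PH80 and 334 ± 180 in PH70 (limma adjusted p 0.18). Igf1, the circulating growth factor made under growth hormone, averaged 11097 ± 885 in PH80 and 12447 ± 2871 in PH70 (limma adjusted p 0.76). Neither passed the test.

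Other male-biased liver genes are also known to depend on the male pattern of growth hormone. Of 18 tested, 0 rose and 6 fell in PH80 against PH70, all 18 had a negative log2 difference and the median was -1.26, against 0.01 over all genes tested. C8b, a complement subunit, was 2.54-fold lower, with 4158 ± 1572 in PH80 and 10314 ± 2554 in PH70 (limma adjusted p 0.017). Slco1a1, an uptake transporter of organic anions, had 398, 277 and 2692 in PH80, against 5586, 6816 and 2549 in PH70, and the groups overlapped because PH80 replicate 3 lay above PH70 replicate 3. It was 6.88-fold lower (limma adjusted p 0.034), and neither edgeR nor DESeq2 called it. Cyp2d9, a male-biased steroid hydroxylase, was 2.15-fold lower in PH80 (10733 ± 2580 in PH80 and 22606 ± 1477 in PH70, limma adjusted p 0.037), and Cyp2u1, another cytochrome, was 2.36-fold lower (147 ± 62.8 in PH80 and 331 ± 73.1 in PH70, limma adjusted p 0.039). Cyp7b1 and Cyp4a12a also fell. Of these 6 calls, edgeR made 2 and DESeq2 called 6 genes of the list.

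Of 13 female-biased liver genes tested, 1 rose and 0 fell in PH80 against PH70, with a median of 0.18. The gene that rose was Prom1, a membrane glycoprotein better known as a marker of progenitor and bile duct cells, with 385, 388 and 204 in PH80, against 10.9, 16.5 and 35.7 in PH70 (limma adjusted p 0.0072). It was called in all 22 alternatives. Summed cholangiocyte markers lay between 2046 and 6554 in PH80 and between 1133 and 11954 in PH70, and their part in the change was not tested. Of 10 other lipocalins, among them the acute phase proteins Orm1 to Orm3 and Lcn2, 0 passed limma, 2 had an unadjusted p under 0.05, and edgeR called 0 and DESeq2 called 1, Lcn2, with a median of 0.69.

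Of 16 transcription factors of Mup and other liver promoters, 0 rose and 3 fell in PH80 against PH70, with a median of -0.50. Cebpa, a factor of hepatocyte differentiation, had 3160, 1692 and 3393 in PH80, against 6628, 6798 and 6772 in PH70. It was 2.56-fold lower, without overlap (limma adjusted p 0.0081), and was called in 21 of 22 alternatives. Stat5b, described above, is also in this list. Hnf4a, a central hepatocyte factor, averaged 10142 ± 2614 in PH80 and 13331 ± 1938 in PH70 (limma adjusted p 0.32). Zhx2, a factor that affects Mup levels in adult mouse liver, averaged 383 ± 56.1 in PH80 and 404 ± 15.4 in PH70 (limma adjusted p 0.81).

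Over all lists, 11 of 95 genes passed in PH80 against PH70 (1 higher and 10 lower, with 34 at an unadjusted p under 0.05). The count rested on single libraries and on the scaling. It fell to 1 without PH70 replicate 2, 2 without PH80 replicate 1, 2 without PH80 replicate 2, 3 without PH70 replicate 1, 4 without PH80_G+H replicate 3, and 6 without PH70 replicate 3 or PH80_G+H replicate 1. With every library set to the same total, which moves the median of all genes to 0.13, it was 3, and the split over all genes became 121 higher and 108 lower in place of 137 higher and 343 lower.

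In PH80_HC against PH80, 0.891% of all tested genes passed (0.652% higher and 0.239% lower), and 1 of 95 list genes did. That gene was Socs2, with 351, 709 and 1162 normalised reads in PH80_HC, against 136, 106 and 206 in PH80. The groups did not overlap, and Socs2 was 4.57-fold higher in PH80_HC (log2 2.19, SE 0.43, limma adjusted p 0.034). It was not called in 9 of 22 alternatives, among them the fit with every library at the same total. Ghr averaged 5097 ± 876 in PH80_HC and 3179 ± 1397 in PH80 (limma adjusted p 0.29), Stat5b 916 ± 280 in PH80_HC and 666 ± 93.3 in PH80 (0.42), and Igf1 13831 ± 2608 in PH80_HC and 11097 ± 885 in PH80 (0.62).

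Male-biased genes showed 0 calls in PH80_HC against PH80 (edgeR and DESeq2 also called 0, and 4 had an unadjusted p under 0.05), with 11 positive and 7 negative log2 differences and a median of 0.21. Slco1a1 averaged 2713 ± 1232 in PH80_HC and 1122 ± 1361 in PH80, and Cyp2d9 18412 ± 5885 in PH80_HC and 10733 ± 2580 in PH80, each with a positive log2 difference. Serpina12 and Ugt2b38, of the same list, had lower means in PH80_HC than in PH80. Serpina12 averaged 549 ± 731 in PH80_HC and 1157 ± 1058 in PH80, and Ugt2b38 31.3 ± 23.9 in PH80_HC and 107 ± 90.9 in PH80. Female-biased genes also had 0 calls by limma, but 9 of 13 had an unadjusted p under 0.05, 11 of 13 a positive log2 difference, and the median was 1.32, against 0.01 over all genes tested. By edgeR 1 of them was called and by DESeq2 4. The edgeR call was Cyp2c69, a cytochrome singled out after its values were seen, with 299 ± 222 in PH80_HC and 39.1 ± 25.9 in PH80 (limma adjusted p 0.056, edgeR adjusted p 0.045).

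Among the other pathway lists limma made 0 calls in PH80_HC against PH80. Among the transcription factors, 0 had an unadjusted p under 0.05, and edgeR and DESeq2 made 0 calls, with a median of 0.29. Cebpa averaged 3553 ± 101 in PH80_HC and 2748 ± 922 in PH80 (limma adjusted p 0.42), Hnf4a 14092 ± 1691 in PH80_HC and 10142 ± 2614 in PH80 (0.35), and Zhx2 338 ± 29.4 in PH80_HC and 383 ± 56.1 in PH80 (0.73). Lipocalins outside the family had 0 genes at an unadjusted p under 0.05 and 0 calls by edgeR and DESeq2, with a median of 0.44. Setting every library to the same total moved the median of all genes to -0.31 and turned the split over all genes to 17 higher and 55 lower, in place of 82 higher and 30 lower, with 0 list genes called. The Mup1 and Mup7 differences were -2.37 and -2.35 on that scale.

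In PH80_G+H against PH80, 0.119% of all tested genes passed (0.111% higher and 0.00796% lower) and 0 of 95 list genes did, and edgeR and DESeq2 called 0 of them too, while 16 had an unadjusted p under 0.05. All 18 male-biased genes had a positive log2 difference, with a median of 0.76 against 0.00 over all genes tested, and 6 had an unadjusted p under 0.05. Without PH80 replicate 3, 1 list gene was called. Ghr averaged 5182 ± 995 in PH80_G+H and 3179 ± 1397 in PH80 (limma adjusted p 0.40), Stat5b 999 ± 57.7 in PH80_G+H and 666 ± 93.3 in PH80 (0.34), and Cebpa 4588 ± 374 in PH80_G+H and 2748 ± 922 in PH80 (0.23). Socs2 averaged 161 ± 30.2 in PH80_G+H and 150 ± 51.3 in PH80 (0.93), Igf1 12925 ± 1684 in PH80_G+H and 11097 ± 885 in PH80 (0.77), and Zhx2 408 ± 78.5 in PH80_G+H and 383 ± 56.1 in PH80 (0.90). Hnf4a, named in this arm, averaged 12248 ± 1633 in PH80_G+H and 10142 ± 2614 in PH80 (limma adjusted p 0.68). As it is not known how HNF4a was given, these reads may not show what was given.

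**Figure D5:**
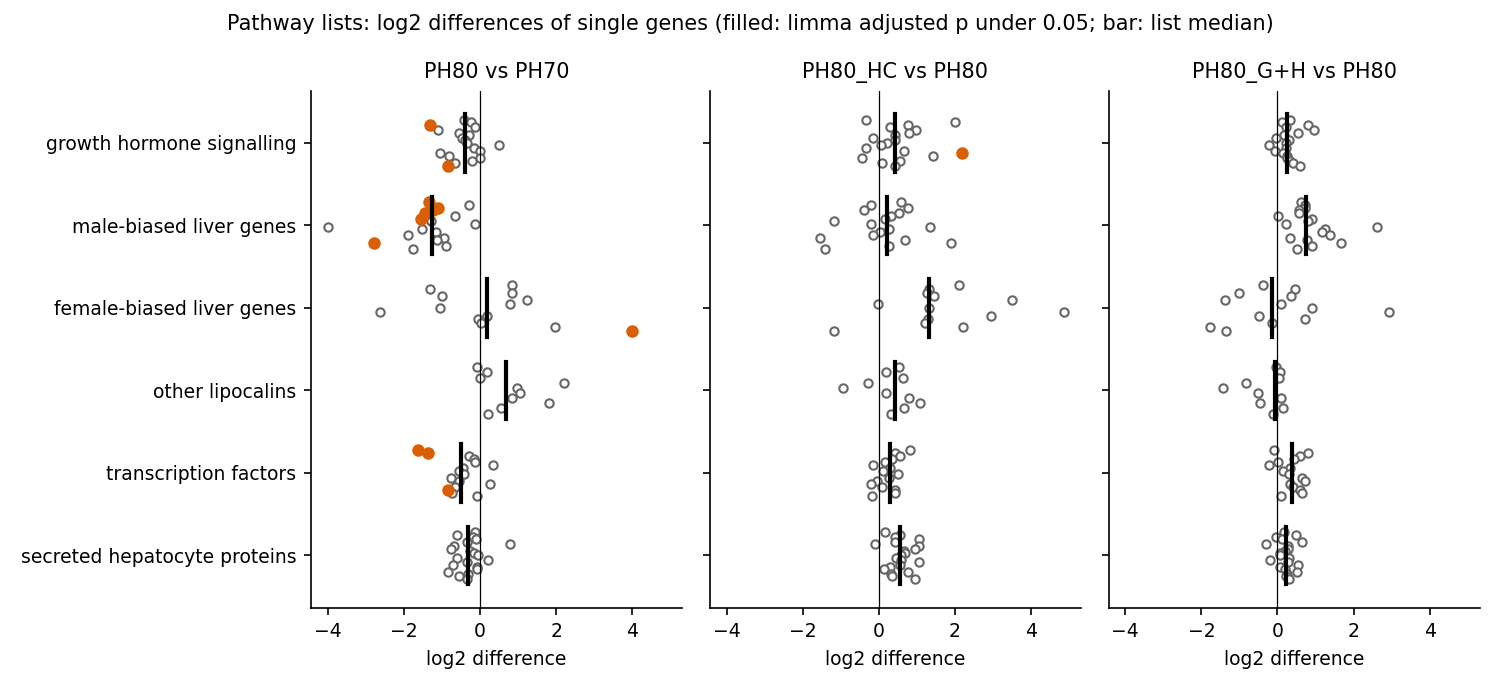
Log2 differences of single genes in 6 lists around the Mup genes, for PH80 against PH70, PH80_HC against PH80 and PH80_G+H against PH80, filled where the limma adjusted p is under 0.05, with the list median as a bar. The male-biased genes lie below 0 in PH80 against PH70 (18 of 18) and above 0 in PH80_G+H against PH80 (18 of 18), and the female-biased genes lie mostly above 0 in PH80_HC against PH80 (11 of 13).

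The genes most like the family sum over the 12 libraries, among 10564 other named genes with a mean of at least 50, were ranked by the Pearson correlation of log2 values. They were Serpina12 (r 0.93), a secreted serpin, Ugt2b38 (0.91), a glucuronosyltransferase, Trim7 (0.87), a ubiquitin ligase, Gstm6 (0.87), a glutathione transferase, Aqp8 (0.86), a water channel of hepatocytes, and Aldh1a7 (0.85), an aldehyde dehydrogenase. Serpina12 and Ugt2b38 are also in the male-biased list. Serpina12 averaged 549 ± 731 in PH80_HC, 1131 ± 589 in PH80_G+H, 1157 ± 1058 in PH80 and 1609 ± 552 in PH70. Over the same 12 libraries, the r with the family sum was 0.62 for Cebpa, 0.49 for Ghr, 0.19 for Igf1, 0.13 for Stat5b, 0.02 for Zhx2, 0.01 for Alb, -0.16 for Socs2 and -0.39 for Hnf4a. These are descriptions over 12 libraries that share 4 group means and 1 size factor per library.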

How the data were processed

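Qiagen columns gave the RNA, and 100 ng of it per sample went into a stranded mRNA library kit, per the labels' protocols. Per the submitters' processing notes, the build was GRCm38 (mm10) and DESeq2 was among the tools. No source used here names the aligner, the counter or the annotation. The deposited values are a normalised signal, reads divided by 1 size factor per library. In every library 100% of them were whole multiples of 1 read within 0.01, so reads were recovered for edgeR (4.0.16) and DESeq2 (1.42.0), which were run as alternatives. Depth was between 9.72 and 44.5 M recovered reads, and counting error weighs most on genes with few reads.

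Genes that reached 10 in 3 or more libraries (12570 of 13554) were tested on log2(value + 1), which understates changes of low genes. Limma (3.58.1, R 4.3.3) took the 12 libraries in 1 fit by group with an intensity trend. P-values are two-sided, Benjamini-Hochberg adjusted over these genes, and called under 0.05. The procedure was tested on simulated data. Differences of Mup genes are between group means of log2(value + 1), and folds are 2 to that power. Gene models are from GENCODE M21 and promoters from RefSeq (GRCm38.p6). Members and gene lists were chosen with earlier results of these data known. Apart from the Mup symbols, the genes named are 8 fixed regulators and liver genes, up to 4 called genes of a list in a comparison (smallest adjusted p) and the 6 most like the family sum. Cyp7b1, Cyp4a12a, Cyp2c69, Apoh and the lipocalins were named after their values were seen. Of the erythroid markers, 4 were not analysed here. Of the called transcription factors, 1 is not reported here by name.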

Additional observations from a re-analysis of the deposited data

How the results depend on the processing

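Of 165 alternative values of single Mup genes, 164 moved by less than the spread between libraries. The exception was Mup1 in PH80_HC against PH80 relative to secreted hepatocyte proteins (-2.62). Leaving out 1 of 3 libraries cannot shift a group mean by that spread, so those settings could not count as moved. Their ranges say more: with 1 library left out, Mup20 lay between -1.17 and -0.02 in PH80_G+H against PH80. For the family sum, averaging the log2 values of the 5 genes moved PH80_HC against PH70 to -1.99. Leaving out 1 library gave family differences between -0.86 and -0.04 for PH80 against PH70, -1.08 and -0.23 for PH80_HC against PH80, -0.47 and 0.36 for PH80_G+H against PH80 (with 5 changes of sign over all settings), -1.43 and -0.77 for PH80_HC against PH70, and -0.61 and -0.30 for PH80_G+H against PH70. The sign also changed under 3 settings for Mup3 in PH80_HC against PH80, 3 for Mup20 and 1 for Mup7 in PH80 against PH70 (Mup7 0.02 relative to secreted proteins), and 1 for Mup21 in PH80_G+H against PH80.

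List genes called in PH80 against PH70 (11) numbered 6 without the intensity trend, 3 with every library at the same total, 5 by edgeR and 22 by DESeq2, and between 1 and 14 with 1 library left out. In PH80_HC against PH80 (1) they numbered 2 with a pseudocount of 5, 0 at the same total, 0 with only the 2 groups in the fit, 3 with the length trend removed, 2 by edgeR, 9 by DESeq2 and between 0 and 4 with 1 library left out. In PH80_G+H against PH80 (0) they numbered between 0 and 1. The cause was not tested. Pairing by replicate number was looked for in deviations from the group means. That number is the one in the sample titles, and the deposited column names mostly carry other numbers. Neither these correlations nor a block on that number can therefore show whether libraries were paired. Libraries of different groups with the same number correlated between -0.37 and 0.37 (6 of 18 pairs over 0.1). Those with different numbers correlated between -0.53 and 0.43 (14 of 36 pairs over 0.1). With 3 libraries per group, these values cannot show whether a batch was shared. With the replicate number as a block, 4 list genes were called in PH80 against PH70, 1 in PH80_HC against PH80 and 0 in PH80_G+H against PH80. The block gave 293, 65 and 9 calls over all genes in these comparisons.

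Over all genes, PH80 against PH70 gave 480 calls, but 229 at the same total, 950 by DESeq2 and between 61 and 727 with 1 library left out. PH80_HC against PH80 gave 112, but 72 at the same total, 2 with only the 2 groups in the fit, 184 with the length trend removed, 503 by DESeq2 and between 28 and 125 with 1 library left out. PH80_G+H against PH80 gave 15, but 0 without the trend or at the same total, 33 with the length trend removed, 203 by DESeq2 and between 0 and 26 with 1 library left out. Depth limits Mup1, which had as few as 40 reads in a library.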
